A study of Mus musculus with 10 samples.

Results

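The genes described here encode the nuclear subunits of the mitochondrial respiratory chain and of ATP synthase, measured in mouse B-cell lymphomas with and without Adriamycin. They were chosen by symbol: any gene with a single symbol in the platform annotation that begins with Ndufa, Ndufb, Ndufc, Ndufs, Ndufv, Uqcr, Cox4 to Cox8 or Atp5, together with Sdha, Sdhb, Sdhc and Sdhd. This gave 90 of the 18193 genes with a probe set on the array. By complex they are 34 genes of complex I, 4 of complex II, 8 of complex III, 19 of complex IV, 17 of complex V, and 8 complex I assembly factors (Ndufaf genes) that the prefix also takes in. Ndufa4 and its paralog Ndufa4l2 are counted with complex IV, where the Ndufa4 protein resides. Of the 90 genes, 87 passed the filter on low signals and were tested; Cox7a1, Cox7b2 and Ndufb4 did not.

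The cells were primary lymphomas taken from the lymph nodes of mice with the genotype Emu-myc;Suv39h1-/-, in which an immunoglobulin enhancer drives Myc in the B lineage. All of them lack Suv39h1, a histone H3 lysine 9 methyltransferase, all carry a retroviral Bcl2 selected with puromycin, and all grew on irradiated NIH 3T3 mouse fibroblasts, so neither group is a wild type. Untreated cells and cells given Adriamycin (ADR, doxorubicin, a DNA-damaging topoisomerase II poison) at 0.05 µg/ml for 5 days in vitro were compared in 5 lymphomas, each with 1 array per condition. The sources used here do not give the ages of the mice. Values per lymphoma are listed below in the order lymphoma_5783, lymphoma_7890, lymphoma_9250, lymphoma_1032, lymphoma_4936. Levels are log2 array signals, changes are ADR minus untreated within a lymphoma on the log2 scale, and errors are SD over the 5 lymphomas unless stated. Signals of different probe sets cannot be ranked against each other, so each gene is compared with itself across arrays.

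B-cell markers were detected: of 10 markers fixed for this cell type 9 had a probe set and all 9 passed the filter. That filter asks for a signal above the table median on at least 5 of 10 arrays. In untreated cells Cd79a was at 9.91 ± 0.72 and Cd79b at 11.01 ± 0.69, with the lowest mean for Pax5 at 5.26 ± 0.27. Over the 9 markers the mean signal by array lay between 7.44 and 9.68, lowest on the ADR array of lymphoma_1032. The ADR array of lymphoma_1032 stands apart: its median over all probe sets was 4.15, and the medians of the remaining arrays were 4.43 to 4.50. Over the genes tested the median change was -0.17 in that lymphoma and between -0.02 and 0.06 in the others. Values of single genes and lymphomas are therefore given as deposited, and means over complexes and lists also after centring the arrays, or normalizing their quantiles again, where the order of the lymphomas depends on it. In bulk RNA, fewer cells of a type and less RNA per cell cannot be told apart.

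The respiratory chain passes electrons from NADH (complex I) or succinate (complex II) through coenzyme Q to complex III, then through cytochrome c to oxygen at complex IV. Complexes I, III and IV pump protons across the inner membrane, and ATP synthase (complex V) uses the gradient to make ATP. Most subunits are encoded in the nucleus and imported; a few core subunits are encoded in mitochondrial DNA and are not analysed here. The nuclear respiratory factor NRF1 and the ETS factor GABP are known regulators of many nuclear subunit genes, and Myc is known to drive mitochondrial biogenesis. Activated and transformed B cells use oxidative phosphorylation as well as glycolysis, and mitochondrial changes are a recognised feature of senescent cells.

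Promoter sequence is a property that the choice by symbol did not use. RefSeq promoter windows (GRCm38.p6) were matched for 74 of the 90 genes, and the 250 bases before the start were searched on both strands. The NRF1-type motif (GCGC, then any base, then T, then GCGC again) lay in 12 of 74 genes (16.2%), against 4.23% of all 27025 genes with a window. The ETS core CCGGAAG lay in 14 of 74 (18.9%), against 7.83% of all genes. The Myc-type E-box CACGTG lay in 6 of 74 (8.11%), close to the 6.86% of all genes. Both the NRF1-type motif and the ETS core lay in 3 of the 74 genes. Neither lay in 51 of 74, though some of these 51, such as Atp5g1 and Ndufv1, held the E-box. For both and for neither the share over all genes is not given, so these counts are descriptive only. Matches of different motifs overlapped in 1 of all windows. A match describes letters only. All genes with a window include genes that were not tested here, so the higher shares cannot be called particular to respiratory genes. The windows below are those of the assembly factor gene Ndufaf4 (plus strand, chr4:24897833-24898082), which had the largest positive mean change of the tested members, of the ubiquitous complex IV subunit gene Cox6a1 (minus strand, chr5:115348959-115349208), whose mean change was nearest to 0, of the ATP synthase subunit gene Atp5h (minus strand, chr11:115419920-115420169), which holds both motifs, of the complex III gene Uqcr11 (minus strand, chr10:80406822-80407071), and of the striated muscle isoform gene Cox8b (minus strand, chr7:140900447-140900696), in whose window none of these letters was found. Capitals mark matches to the NRF1-type motif or the ETS core on either strand. On the other strand the NRF1-type motif is read as GCGC, then A, then any base, then GCGC. The ETS core is read there as CTTCCGG.
Ndufaf4: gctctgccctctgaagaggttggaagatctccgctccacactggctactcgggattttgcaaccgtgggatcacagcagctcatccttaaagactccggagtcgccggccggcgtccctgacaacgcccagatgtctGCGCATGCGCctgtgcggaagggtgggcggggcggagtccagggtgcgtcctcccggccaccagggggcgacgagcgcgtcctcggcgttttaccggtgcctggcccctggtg
Cox6a1: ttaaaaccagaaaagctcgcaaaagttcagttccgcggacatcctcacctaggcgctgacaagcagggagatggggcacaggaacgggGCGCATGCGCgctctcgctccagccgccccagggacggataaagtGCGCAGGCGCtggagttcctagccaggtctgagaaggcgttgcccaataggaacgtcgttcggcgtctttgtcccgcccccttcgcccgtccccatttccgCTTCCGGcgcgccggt
Atp5h: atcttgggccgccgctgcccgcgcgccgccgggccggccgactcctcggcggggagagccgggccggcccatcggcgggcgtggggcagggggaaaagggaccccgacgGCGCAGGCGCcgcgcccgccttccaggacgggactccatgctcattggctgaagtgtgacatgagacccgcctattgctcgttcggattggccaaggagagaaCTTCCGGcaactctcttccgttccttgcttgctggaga
Uqcr11: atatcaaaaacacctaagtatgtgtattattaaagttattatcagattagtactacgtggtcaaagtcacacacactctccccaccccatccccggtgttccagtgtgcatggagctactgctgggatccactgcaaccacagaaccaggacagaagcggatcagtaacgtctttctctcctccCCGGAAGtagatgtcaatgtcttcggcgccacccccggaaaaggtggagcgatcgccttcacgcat
Cox8b: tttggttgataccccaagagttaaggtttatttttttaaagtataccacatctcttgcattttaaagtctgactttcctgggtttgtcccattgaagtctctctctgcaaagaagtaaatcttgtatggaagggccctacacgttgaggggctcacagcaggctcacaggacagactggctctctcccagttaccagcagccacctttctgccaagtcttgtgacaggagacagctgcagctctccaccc
In Cox6a1 the 3 matches begin 162, 117 and 16 bases before the start, in Ndufaf4 the match begins 113 bases before it, in Atp5h they begin 141 and 38 bases before it, and in Uqcr11 66 bases before it.

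With Adriamycin the signals of respiratory subunits lay close to their untreated values on average. In the limma fit paired by lymphoma, 0 of 87 tested members had an adjusted p under 0.05, beside 0% of all 11472 genes, and the smallest adjusted p of a member was 0.577. At an unadjusted p below 0.05 there was 1 member, Ndufb1, where 8.48% of all genes reached that level (973 genes, 3.97% higher and 4.52% lower). On average 40 members were higher and 47 lower with ADR, also after centring, and 44.8% of all genes were higher. The median size of the change was 0.06 over the members and 0.13 over all genes tested, and 78 of 87 members had a change smaller than 0.2 in size, against 65.7% of all genes. No member had untreated and ADR values that did not overlap, beside 0.357% of all genes.

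The intervals give the precision of the change in signal. For 81 of 87 members (93.1%) the 95% interval of the change lay within 1.5-fold in either direction (0.585 on the log2 scale), against 64.2% of all genes tested. Members have high signals on this array, and genes with a mean signal over 10 are measured with less spread: among all 856 such genes the share was 85.4%, and among the 57 members it was 56 of 57, Ndufv3 being the exception. The other members whose interval reached past 1.5-fold were Ndufb1, Ndufaf4, Cox4i2, Cox6a2 and Cox8b.

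**Figure D1:**
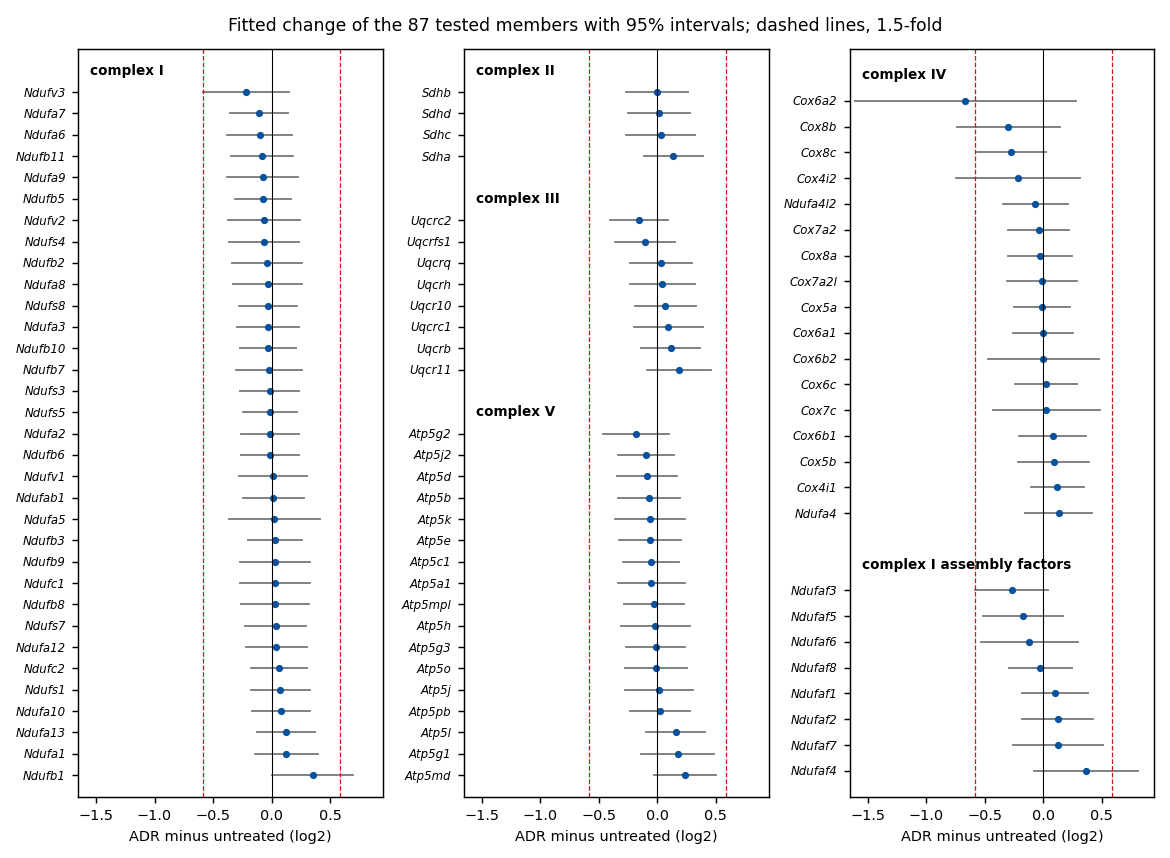
Fitted change of each of the 87 tested members (blue points, ADR minus untreated, log2) with its 95% interval from limma (grey bars), grouped by complex; the dashed red lines mark 1.5-fold in either direction. Points cluster near 0, with the widest interval at Cox6a2, and 81 of 87 intervals lie between the dashed lines.

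Beneath the small averages, most members lay on one side of 0 in lymphoma_5783, lymphoma_7890 and lymphoma_4936, and the side differed between them. With arrays as deposited the split was closer to even in lymphoma_9250 and lymphoma_1032. In lymphoma_4936, 74 of 87 members were higher with ADR, where 56.4% of all genes tested were. In lymphoma_7890 21 of 87 were higher, against 48.4% of all genes, and in lymphoma_5783 25 of 87, against 53.7%. In lymphoma_9250 44 of 87 were higher, against 47% of all genes, and in lymphoma_1032 38 of 87, against 34.4%. Among all genes with a mean over 10 the shares were 53.4%, 48.9%, 46.0%, 53.3% and 58.4%, in the order of the lymphomas above. The share of members higher was below that of those bright genes in lymphoma_5783, lymphoma_7890 and lymphoma_1032, and above it in lymphoma_9250 and lymphoma_4936. In lymphoma_1032 this depended on the scaling. There the shares were 83.9% of members and 80.6% of bright genes with centred arrays, and 49.4% of each after another quantile normalization. The mean changes over the members were -0.11, -0.06, -0.01, -0.04 and 0.19, with both signs among them, and the mean over lymphomas was -0.01 ± 0.12. After centring these means were -0.20, -0.07, 0.03, 0.15 and 0.05, and after another quantile normalization -0.16, -0.06, 0.00, -0.01 and 0.18; the sign thus stayed the same for lymphoma_5783, lymphoma_7890 and lymphoma_4936 and turned with the scaling for lymphoma_1032 and lymphoma_9250. With centred arrays 60 of 87 members were higher in lymphoma_4936 and 73 of 87 in lymphoma_1032, where 80.6% of all genes with a mean over 10 were then higher too. Each lymphoma gave 1 pair of arrays, so the differences between lymphomas in their response could not be tested.

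Levels show from which base lymphoma_4936 differed. Over the 73 tested subunits that are not tissue-restricted, the mean signal was 10.60, 10.77, 10.69, 10.72 and 10.49 in untreated cells and 10.51, 10.69, 10.69, 10.71 and 10.70 with ADR. Untreated lymphoma_4936 was the lowest of the untreated arrays, and with ADR it lay among lymphoma_7890, lymphoma_9250 and lymphoma_1032. The median over all genes tested was also lowest on that array among the untreated ones, at 7.16, and was 7.29 on its ADR array. With centred arrays the mean change of the 73 subunits was 0.08 in lymphoma_4936 and highest in lymphoma_1032, at 0.19. After another quantile normalization it was highest in lymphoma_4936, at 0.21, and -0.01 in lymphoma_1032. The 3' to 5' difference of the Gapdh and beta-actin control probe sets, a sign of RNA integrity, was 0.241 in untreated and 0.305 in ADR cells of lymphoma_4936, a change of 0.064 that lay within the range of the other lymphomas, -0.043 to 0.081. Its part in the shift was not tested.

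**Figure D2:**
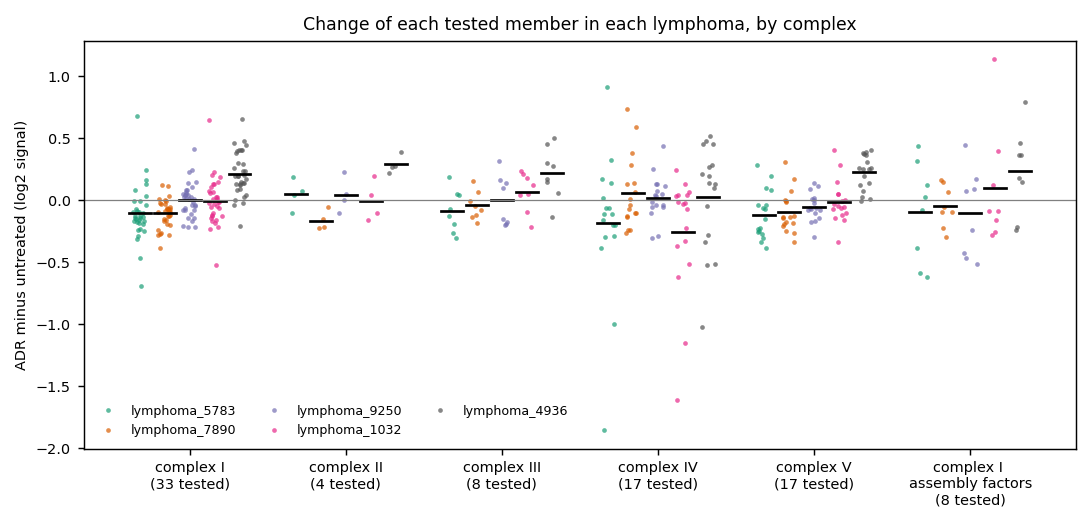
Change of each tested member (points, ADR minus untreated, log2 signal) in each of the 5 lymphomas (colours), by complex; black bars are means over the members of a complex in a lymphoma. The bars of lymphoma_4936 lie above 0 in every complex with arrays as deposited, between 0.03 in complex IV and 0.29 in complex II. Those means are -0.11 and 0.16 with centred arrays, and 0.03 and 0.29 after another quantile normalization. The lowest points of complex IV belong to Cox6a2.

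Complex I, the NADH dehydrogenase, had a mean change of 0.00 ± 0.13 over its 33 tested members, 15 higher and 18 lower on average. By lymphoma its mean was -0.11, -0.11, 0.01, -0.01 and 0.22, highest in lymphoma_4936, where 30 of 33 members were higher. With centred arrays lymphoma_1032 was highest instead, at 0.18 with 30 of 33 higher, against 0.08 with 23 of 33 in lymphoma_4936. After another quantile normalization lymphoma_4936 was highest, at 0.21 with 28 of 33 higher, against -0.02 with 15 of 33 in lymphoma_1032. Ndufb1, an accessory subunit of the membrane arm, had signals of 7.79, 8.33, 7.93, 7.01 and 7.78 in untreated cells and of 8.47, 8.24, 8.34, 7.66 and 7.88 with ADR. It was higher in all lymphomas but lymphoma_7890, and the groups overlapped; the change was 0.35 ± 0.34 (adjusted p = 0.577 in limma). Ndufv3, a small subunit of the NADH-binding module, had signals of 11.02, 10.44, 10.77, 12.00 and 10.52 untreated and of 10.32, 10.56, 10.63, 11.48 and 10.66 with ADR. Its change of -0.22 ± 0.38 (adjusted p = 0.682) was lowest in lymphoma_5783 and lymphoma_1032, and without both it was 0.039. Ndufa13, the subunit also known as GRIM-19, had a change of 0.12 ± 0.13, higher in 4 of 5 lymphomas, and Ndufa7 one of -0.11 ± 0.12. The core subunits had mean changes near 0: Ndufs1, which carries iron-sulfur clusters, had a change of 0.07 ± 0.14, Ndufv1, the NADH-binding flavoprotein, of 0.01 ± 0.23, and Ndufs7 and Ndufs8, at the end of the cluster chain, of 0.03 ± 0.16 and -0.03 ± 0.13. For these 4 core genes the interval lay within -0.28 and 0.32. They were chosen for their role after the values were seen.

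The 8 Ndufaf genes, whose products assemble complex I and are not part of it, had a mean change of 0.02 ± 0.15, with 4 higher and 4 lower. Ndufaf4 had signals of 8.86, 9.05, 8.86, 7.46 and 9.31 untreated and of 9.17, 9.20, 9.31, 8.59 and 9.09 with ADR. The untreated array of lymphoma_1032 lay below all others, and the change there was 1.14, beside -0.21 in lymphoma_4936; the mean was 0.37 ± 0.50 (adjusted p = 0.602). A further probe set of Ndufaf4 had changes of 0.04, 0.26, 0.23, 0.81 and -0.09, again highest in lymphoma_1032. Ndufaf3 had a change of -0.27 ± 0.28, lower in 4 of 5 lymphomas (adjusted p = 0.597). Ndufaf2 and Ndufaf5 had changes of 0.12 ± 0.26 and -0.17 ± 0.33.

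Complex II, succinate dehydrogenase, belongs to both the chain and the TCA cycle and has no subunit encoded in mitochondrial DNA. Its 4 genes had a mean change of 0.04 ± 0.16. All 4 were lower in lymphoma_7890 and all 4 higher in lymphoma_4936, with mean changes of -0.16 and 0.29. With centred arrays these means were -0.17 and 0.16, and all 4 genes were higher in lymphoma_1032 too. After another quantile normalization the means were -0.16 and 0.29, with 2 of 4 genes higher in lymphoma_1032. Sdha, the flavoprotein that oxidises succinate, had signals of 10.27, 10.81, 10.56, 10.33 and 10.14 untreated and of 10.46, 10.76, 10.79, 10.37 and 10.43 with ADR, a change of 0.14 ± 0.14 (adjusted p = 0.707). It was higher in all but lymphoma_7890, with overlapping groups. Of the further Sdha probe sets above the table median, one had a mean change of -0.18 and the other of 0.28, so the direction of this gene depends on the probe set. Sdhb, the iron-sulfur subunit, and Sdhc, a membrane anchor, had changes of -0.002 ± 0.18 and 0.03 ± 0.24. With ADR the Sdhb signal lay between 10.33 and 10.40 in the 5 lymphomas, against 10.13 to 10.58 in untreated cells.

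Complex III, the cytochrome bc1 complex, had 6 of 8 genes higher on average and a mean change of 0.03 ± 0.12. Uqcr11, its smallest accessory subunit, had signals of 9.81, 10.48, 10.40, 10.05 and 9.97 untreated and of 9.85, 10.47, 10.54, 10.29 and 10.48 with ADR. Its change of 0.19 ± 0.20 (adjusted p = 0.651) was largest in lymphoma_4936 at 0.50 and lay between -0.003 and 0.24 elsewhere. Uqcrc2, a core protein, was lower in all lymphomas but lymphoma_4936, with changes of -0.27, -0.18, -0.20, -0.21 and 0.06 (mean -0.16 ± 0.12, adjusted p = 0.658). A further probe set of Uqcrc2 gave -0.30, -0.11, -0.18, -0.21 and 0.12. Uqcrfs1, the Rieske iron-sulfur protein, had the same signs, with a mean of -0.11 ± 0.16, and Uqcrb, which has a role in coenzyme Q binding, a mean of 0.11 ± 0.15.

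Complex IV, cytochrome c oxidase, had a mean change of -0.07 ± 0.15 over 17 tested members, 7 higher and 10 lower, and of 0.035 over the 11 that are not tissue-restricted. Cox4i1, the ubiquitous form of the regulatory subunit 4, had signals of 12.31, 12.35, 12.41, 12.46 and 12.23 untreated and of 12.45, 12.48, 12.55, 12.53 and 12.36 with ADR. With arrays as deposited its changes lay between 0.07 and 0.14 in all 5 lymphomas, the most even of the members named here. Their mean was 0.12 ± 0.03 (adjusted p = 0.714 in limma). Ndufa4, a subunit of complex IV despite its name, had a change of 0.13 ± 0.22, and the abundant subunit genes Cox5a, Cox6a1 and Cox6c had changes of -0.01 ± 0.10, -0.0003 ± 0.16 and 0.02 ± 0.18. With arrays as deposited, members higher in all 5 lymphomas were Cox4i1 and Atp5l, and members lower in all 5 were Cox8c and Atp5j2. Over all genes the shares were 4.67% and 4.82%, or 9.49% for either sign, against 4 of 87 members. Centring shifts all genes of an array together, and it moved the mean change of the members in lymphoma_1032 from -0.04 to 0.15. Evenness and signs over all 5 lymphomas thus depend on the scaling.

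Several subunits of complex IV have isoforms restricted to certain tissues, and of the tested members one of these, Cox6a2, had the largest SD of the change. Cox6a2, the heart and skeletal muscle form of subunit 6a, had signals of 8.01, 5.60, 8.79, 7.88 and 7.20 untreated and of 6.16, 6.34, 9.22, 6.27 and 6.17 with ADR. It was lower with ADR in lymphoma_5783, lymphoma_1032 and lymphoma_4936, by changes of -1.85, -1.61 and -1.02, and higher in lymphoma_7890 and lymphoma_9250, by 0.74 and 0.44. Its mean change of -0.66 ± 1.19 (adjusted p = 0.644) was 0.050 without lymphoma_5783 and lymphoma_1032. The further Cox6a2 probe set had changes of -2.06, 0.58, -0.19, -2.69 and -1.05. Cox7a1, the muscle form of subunit 7a, did not pass the filter; its signals were 6.03, 4.37, 3.79, 6.90 and 4.03 untreated and 2.64, 4.29, 2.91, 4.65 and 3.65 with ADR. The 2 highest untreated signals of Cox7a1 were those of lymphoma_5783 and lymphoma_1032, where the changes were -3.39 and -2.25.

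In the same pair of lymphomas the macrophage, fibroblast and neutrophil markers had their largest mean changes. The 14 tested macrophage markers, of 20 in the list, had a mean change of 1.34 in lymphoma_5783 and of 1.39 in lymphoma_1032, and of 0.18, -0.05 and 0.25 in lymphoma_7890, lymphoma_9250 and lymphoma_4936. All 14 were higher on average, and the 6 below the filter, C1qa, C1qb, C1qc, Cx3cr1, Mrc1 and Vsig4, had changes between -0.86 and 0.67. Their summed log2 signal ranged from 72.1 to 128.8 in untreated and from 75.6 to 135.5 in ADR cells. The 15 tested fibroblast markers, of 24 in the list, had mean changes of 0.65, -0.10, 0.05, 0.52 and 0.10, with a summed signal of 82.7 to 105.0 untreated and 82.8 to 114.8 with ADR. Of defining markers, Csf1r ranged from 5.16 to 11.49 in untreated and from 5.61 to 11.60 in ADR cells, and Col1a1 from 4.95 to 5.39 and from 4.39 to 5.08. The 4 tested neutrophil markers, of 13, had mean changes of 0.47, 0.03, -0.05, 1.27 and 0.35, the 4 tested T-cell markers, of 12, of 0.74, 0.09, -0.44, -0.47 and -0.11, and the 9 B-cell markers of -0.12, 0.30, 0.65, -0.60 and -0.37. Over all markers with a probe set, tested or not, the means in lymphoma_5783 and lymphoma_1032 were smaller. They were 0.53 and 0.92 for macrophages, 0.47 and 0.34 for fibroblasts and 0.19 and 0.73 for neutrophils. The part of these cells in the signals of the muscle isoforms was not tested. Without both lymphomas 0 members had an adjusted p under 0.05 in limma, as with all 5, beside 0 of all 11472 genes tested.

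The other restricted isoforms had mean changes between -0.30 and 0.10. Cox8c, a testis form, had signals of 6.67, 6.41, 6.56, 6.42 and 6.46 untreated and of 6.28, 6.14, 6.51, 5.80 and 6.42 with ADR, lower in all 5, with a change of -0.27 ± 0.24 (adjusted p = 0.579). Cox6b2, also a testis form, stood out in lymphoma_5783, with 6.30 untreated and 7.21 with ADR against 5.12 to 5.52 on the 8 other arrays. Cox8b, whose promoter is printed above, had 4.66 ± 0.31 untreated and 4.36 ± 0.27 with ADR, near the median of the whole table, 4.43. Cox4i2, the hypoxia-responsive lung form of subunit 4, had a change of -0.22 ± 0.62 that was 0.018 without lymphoma_1032. Ndufa4l2, a hypoxia-induced paralog of Ndufa4, had one of -0.07 ± 0.21, which became 0.019 after another quantile normalization. Cox7b2 lay between 1.97 and 3.20 on all arrays, and the single-symbol probe set of Ndufb4, a complex I gene, between 2.81 and 3.52.

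**Figure D3:**
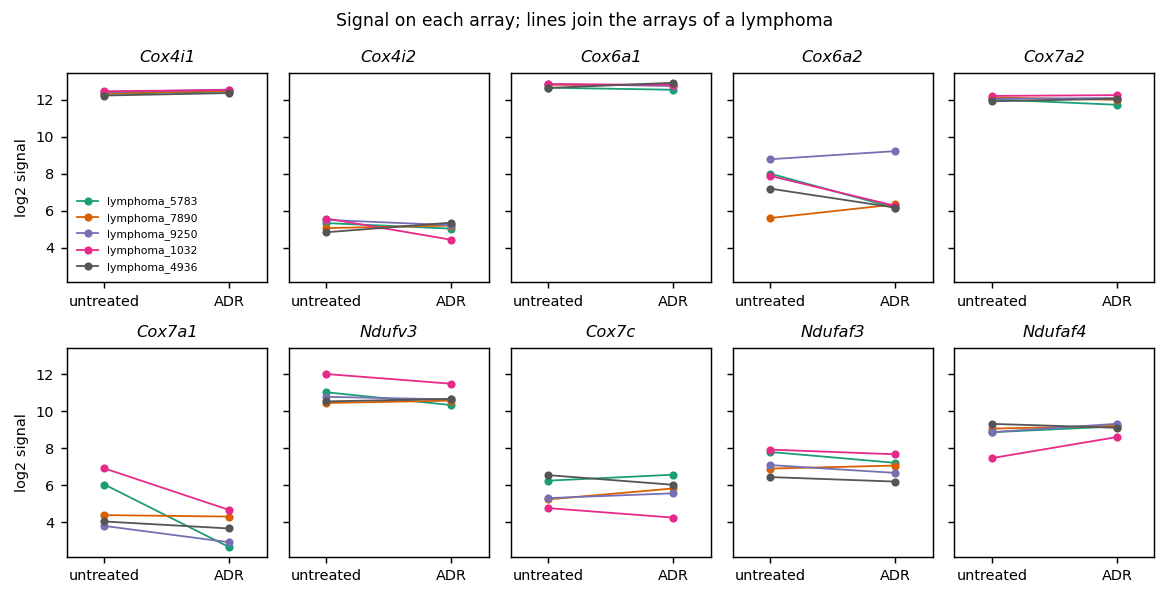
Log2 signal of 10 genes on the untreated and the ADR array of each lymphoma (colours, lines join the pair); heights are not comparable between genes because probe sets differ. Cox4i1, Cox6a1 and Cox7a2 have changes between -0.29 and 0.28 in all 5 lymphomas, Cox6a2 and Cox7a1 are lower with ADR in lymphoma_5783 and lymphoma_1032, and Ndufaf4 starts low in lymphoma_1032.

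Complex V, the ATP synthase, had a mean change of -0.01 ± 0.14, with 5 of 17 members higher and 12 lower on average. With arrays as deposited 16 of 17 were higher in lymphoma_4936, 6 in lymphoma_1032, 3 in lymphoma_7890 and 4 in lymphoma_5783. With centred arrays 12 were higher in lymphoma_4936 and 16 in lymphoma_1032. After another quantile normalization 16 were higher in lymphoma_4936 and 6 in lymphoma_1032. Centring thus changed which lymphoma had most members higher, and the quantile normalization did not. The catalytic head genes Atp5a1, Atp5b and Atp5c1, for subunits alpha, beta and gamma, had changes of -0.05 ± 0.22, -0.07 ± 0.18 and -0.05 ± 0.09. Atp5md, a small membrane subunit also called DAPIT, had signals of 9.55, 9.54, 9.85, 9.87 and 9.89 untreated and of 9.84, 9.84, 9.79, 10.16 and 10.25 with ADR. It was higher in all lymphomas but lymphoma_9250, with a change of 0.24 ± 0.17 (adjusted p = 0.581). Atp5l, subunit g of the membrane sector, had a change of 0.16 ± 0.14 and was higher in all 5 with arrays as deposited. Atp5j2, subunit f, was lower in all 5 on that scale, with a change of -0.10 ± 0.10, but its further bright probe set had changes of -0.07, -0.14, 0.09, 0.02 and -0.02. The c-ring of the rotor has 3 genes that encode the same mature protein: Atp5g1 had a change of 0.17 ± 0.28, Atp5g2 of -0.18 ± 0.21 and Atp5g3 of -0.01 ± 0.14. Atp5g2 was lower in all lymphomas but lymphoma_4936.

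How many subunits differed between the lymphomas depended on the setting. A moderated F test of the lymphoma terms in the same fit called 4 of 87 members (4.6%) at an adjusted p under 0.05, whereas it called 26.9% of all genes tested (3089 genes). These 4 were Ndufaf3 (adjusted p = 0.013), Cox7c (0.0178), Ndufv3 (0.0343) and Cox6b2 (0.0381). The count was 20 with a trended robust prior, beside 33.6% of all genes, and 7 when the probe sets of a gene were averaged, beside 25.5%. It also rested on lymphoma_1032: without it 0 members were called, beside 10.3% of all genes, and without lymphoma_7890 2 were, Cox7c and Ndufaf3. Ndufaf3 had signals of 7.79, 6.89, 7.08, 7.92 and 6.43 untreated and of 7.20, 7.05, 6.66, 7.66 and 6.19 with ADR, lowest in lymphoma_4936 in both conditions. Cox7c, an abundant subunit whose chosen probe set here was dim, had signals of 6.24, 5.22, 5.30, 4.75 and 6.54 untreated and of 6.56, 5.82, 5.55, 4.24 and 6.01 with ADR. Of Cox6a2, with the widest untreated spread of the tested members (SD 1.20), the adjusted p was 0.0571. The members with the smallest p in the other complexes were Ndufs7 (adjusted p = 0.0717) in complex I beside Ndufv3, Sdhd (0.0571) and Sdha (0.147) in complex II, Uqcrq (0.0985) and Uqcr11 (0.111) in complex III, Atp5g1 (0.14) and Atp5g3 (0.145) in complex V, and Ndufaf4 (0.0755) beside Ndufaf3. Over all members the median SD between untreated lymphomas was 0.21, against 0.35 over all genes and 0.27 over genes with a mean over 10.

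Centring also changed which lymphoma was highest for the ribosome, the TCA cycle and the cytochrome c and coenzyme Q list. Another quantile normalization left lymphoma_4936 highest in these lists, as with arrays as deposited. The 76 genes of the mitochondrial ribosome, which translates the subunits encoded in mitochondrial DNA, had changes of -0.04, -0.11, -0.04, 0.07 and 0.23 on average, with a mean of 0.02 ± 0.13 and 42 higher, and the genes with the smallest p were Mrps6 at 0.43 ± 0.41 and Mrpl23 at -0.25 ± 0.14. With centred arrays the mean of the ribosome was 0.26 in lymphoma_1032 and 0.09 in lymphoma_4936, and that of pyruvate dehydrogenase and the TCA cycle was 0.19 and 0.02. After another quantile normalization these means were 0.11 and 0.21 for the ribosome, and 0.02 and 0.14 for pyruvate dehydrogenase and the TCA cycle. The 17 tested genes of pyruvate dehydrogenase and the TCA cycle had mean changes of -0.08, -0.04, -0.13, 0.00 and 0.16, with Idh2 at -0.19 ± 0.18 and Dlst at 0.16 ± 0.09. Among 15 genes of cytochrome c and coenzyme Q synthesis 8 were higher, and the mean was -0.004 ± 0.13. It was 0.17 in lymphoma_4936 (0.04 with centred arrays, 0.15 after another quantile normalization). Cyc1, the cytochrome c1 of complex III, had a change of 0.04 ± 0.21, Cycs, cytochrome c, of 0.08 ± 0.09, Coq8b of -0.36 ± 0.32 and Hccs, which attaches heme to cytochrome c, of -0.24 ± 0.14. Of 21 import and chaperone genes 18 were higher, with a mean of 0.08 ± 0.10, Timm10 at 0.37 ± 0.44 and Timm17b at -0.27 ± 0.30. Their mean was highest in lymphoma_1032 with each scaling, at 0.20 as deposited, 0.39 centred and 0.23 after another quantile normalization. None of these genes had an adjusted p under 0.05 in limma; at an unadjusted p below 0.05 there were 2 of 76 for the ribosome, 1 of 15 for cytochrome c and coenzyme Q and 0 of 17 and 0 of 21 for the TCA cycle and import, beside 8.48% of all genes (0% at the adjusted threshold).

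Assembly factors outside the Ndufaf family had mean changes between -0.05 and 0.10 by list. Of 17 complex IV assembly factors 9 were higher, with a mean of 0.03 ± 0.07. Sco2, a copper chaperone that is also a p53 target, had changes of 1.02, 0.31, 0.56, 0.38 and -0.02, a mean of 0.45 ± 0.38 (adjusted p = 0.565), and Coa5 one of 0.30 ± 0.21. The 7 further complex I factors had a mean of -0.03 ± 0.17, with Acad9 at 0.18 ± 0.29 and Tmem186 at -0.31 ± 0.81. The 9 factors of complexes II and III had a mean of -0.05 ± 0.05, with Sdhaf4 at 0.17 ± 0.11 and Sdhaf3 at -0.23 ± 0.31, and the 3 of ATP synthase one of 0.10 ± 0.14, with Tmem70 at 0.22 ± 0.21 and Atpaf1 at 0.18 ± 0.23.

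Among nuclear regulators, Gabpa and Gabpb1, which encode subunits of the ETS factor GABP, had lower mean signals with ADR. Gabpa, the DNA-binding subunit, had changes of -0.70, -0.02, -0.34, -0.66 and -0.12, a mean of -0.37 ± 0.31 (adjusted p = 0.565), and Gabpb1, its partner, of -0.68 ± 0.76 (adjusted p = 0.565). Nrf1 had a change of -0.33 ± 0.52 and was lower in all lymphomas but lymphoma_4936. Of the remaining regulators Esrra had a change of 0.17 ± 0.25, Ppargc1b, a coactivator of mitochondrial biogenesis, of -0.07 ± 0.42, and Myc of 0.35 ± 0.44. The 10 tested regulators had a mean of -0.09 ± 0.08, with 4 higher. Among 14 genes of mitochondrial DNA maintenance and transcription 9 were higher, with a mean of 0.01 ± 0.15; Polrmt, the mitochondrial RNA polymerase, was higher in all 5 at 0.34 ± 0.20 (adjusted p = 0.565), Mgme1 was lower in all 5 at -0.39 ± 0.48, and Tfam, which packages mitochondrial DNA, had a change of -0.07 ± 0.18. The 6 carrier and porin genes had a mean of -0.003 ± 0.11, with Vdac1 and Vdac3 at -0.11 ± 0.16 and -0.13 ± 0.22.

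**Figure D4:**
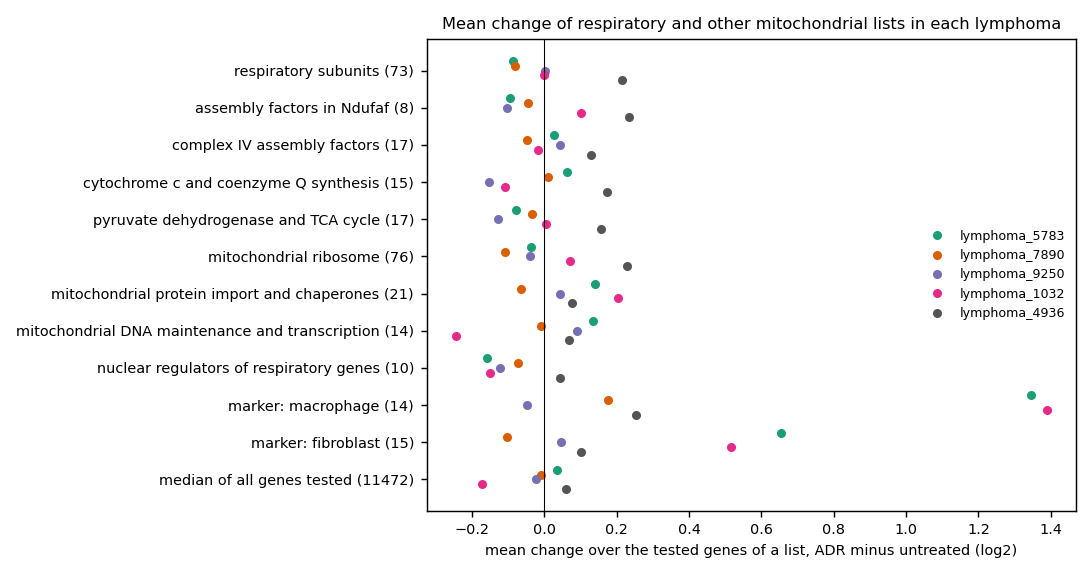
Mean change (ADR minus untreated, log2) over the tested genes of each list in each lymphoma (colours), with the number of genes in brackets; the last line is the median of all genes tested. With arrays as deposited, respiratory subunits and the mitochondrial ribosome lie highest in lymphoma_4936, at 0.21 and 0.23. With centred arrays both are highest in lymphoma_1032, at 0.19 and 0.26. After another quantile normalization both are highest in lymphoma_4936, at 0.21 and 0.21. Macrophage and fibroblast markers lie highest in lymphoma_5783 and lymphoma_1032.

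How firmly a member's change is known depends on its probe set. There were 76 further probe sets above the table median for 49 of the tested members. Their mean change differed from that of the chosen probe set by 0.05 in the median, 53 of 76 had the same sign, and 5 differed by more than 0.3, among them those of Cox6a2 and Sdha.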

How the data were processed

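Total RNA was measured on 10 Affymetrix mouse expression arrays, 5 untreated and 5 ADR, in pairs from 5 lymphomas. The deposited table holds log2 signals per probe set, and the submitters' processing notes name RMA and Partek for the steps the authors ran. Their versions and settings, and the base of the logarithm, are not stated in these notes, and log2 was inferred from the range of 0.55 to 15.63. RMA signals of bright probe sets can be compressed, which would understate changes there. The number of arrays limits the precision.

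A gene was represented by its single-symbol probe set with the highest mean over all arrays. The 10 probe sets with several symbols that include a member were left out. Genes above the table median (4.43) on at least 5 of 10 arrays were tested, 11472 in all. The fit was limma 3.58.1 in R 4.3.3 (lmFit, eBayes) with the lymphoma as a block; p-values are two-sided and adjusted by Benjamini-Hochberg over all genes tested, with a threshold of 0.05. Means over a list or complex have no test. Same-numbered arrays come from the same lymphoma per the labels, and deviations from the group means correlated between 0.51 and 0.79 within pairs across genes. The code was tested on simulated data.

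Members and lists were chosen with earlier results of these data known. Named by rule were, in each complex, the 2 members with the smallest p in each direction and the 2 with the smallest p between lymphomas, all tissue-restricted isoforms, the 2 genes with the smallest p in each further list, and 8 fixed genes; others were named after their values were seen. The alternatives were no block, other filters, the mean of all probe sets, quantile normalization, centring, array weights, a trended robust prior and the omission of each lymphoma in turn. Added after seeing the data were the omission of lymphoma_5783 and lymphoma_1032 and of the tissue-restricted isoforms. Python 3.11.15, pandas 2.3.3 and matplotlib 3.10.9 were used.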

Additional observations from a re-analysis of the deposited data

Results flagged for a closer look

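Within groups of 5 values, 11 of 105 examined had a lowest or highest value far from the others by Dixon's criterion (0.71). Chance gives this in about 1 of 20 independent groups. That rate does not apply here, because many of the genes were named by p-values from the same data. Among untreated arrays the flagged values were Ndufa13 in lymphoma_1032 (signal 11.23), Ndufaf4 in lymphoma_1032 (7.457, below the others) and Cox6b2 in lymphoma_5783 (6.299). Among ADR arrays they were Ndufv3 in lymphoma_1032 (11.477), Ndufa4 in lymphoma_5783 (10.029, below the others), Cox6a2 in lymphoma_9250 (9.221), Cox6b2 in lymphoma_5783 (7.213) and Atp5g1 in lymphoma_5783 (10.199, below the others). Among changes, with arrays as deposited, they were Uqcrc2 in lymphoma_4936 (0.056, the only value above 0), Cox4i1 in lymphoma_1032 (0.068, the smallest of 5 close values) and Atp5md in lymphoma_9250 (-0.064, the only value below 0).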

How the results depend on the processing

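The count of 0 members with an adjusted p under 0.05 held in every alternative run (limma), also without the replicate block. In each run 0 of all genes reached that threshold too, so the count says nothing particular to the members. At an unadjusted p below 0.05 there was 1 member in the main setting, beside 8.48% of all genes. Mean changes by complex moved by less than their SD over lymphomas in every alternative, and leaving out 1 lymphoma gave -0.053 to 0.027 for complex I, -0.018 to 0.095 for II, -0.014 to 0.062 for III, -0.098 to -0.018 for IV, -0.067 to 0.017 for V and -0.037 to 0.048 for the Ndufaf genes. The number of members that differed between lymphomas, 4, was 7 when the probe sets of a gene were averaged, 20 with a trended robust prior (33.6% of all genes), 0 to 4 when 1 lymphoma was left out, and 1, Cox6a2, without lymphoma_5783 and lymphoma_1032; the cause was not tested. Of 27 named members 19 kept their sign throughout. The sign turned, with the cause not tested, for Sdhc with array weights (-0.014) and Atp5g2 with averaged probe sets (0.005), and for Ndufa4l2 with quantile normalization (0.019). Leaving out 1 lymphoma gave -0.064 to 0.090 for Sdhc, -0.070 to 0.052 for Sdhb, -0.399 to 0.018 for Cox4i2, -0.227 to 0.086 for Cox6b2 and -0.137 to 0.008 for Ndufa4l2. Without lymphoma_5783 and lymphoma_1032 the changes were 0.039 for Ndufv3, 0.018 for Sdhb, 0.050 for Cox6a2, 0.124 for Cox4i2, -0.193 for Cox6b2 and 0.031 for Ndufa4l2.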
